A study of Mus musculus with 4 samples.

Results

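The genes of cholesterol synthesis, uptake and efflux were followed in a map of chromatin contacts from mouse macrophages. The set held 30 named protein-coding genes of the 20720 autosomal ones in the annotation, in 3 classes by role: 16 synthesis enzymes, 5 sterol sensing regulators and 9 efflux and transport genes. An interaction was assigned to a gene when either of its 5-kb bins held a transcription start site (TSS) of that gene, which gave 631 of the 237102 interactions in the list. The members were chosen by name and role, and no contact value was used to choose them.

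The map came from H3K4me3 HiChIP, in which chromatin contacts are captured by ligation in fixed nuclei and enriched with an antibody to histone H3 trimethylated at lysine K4, a mark of active promoters. The cells were bone marrow-derived macrophages (BMDMs) of C57BL/6J mice, grown for 7 days with M-CSF. There were 2 samples treated with IL-4 at 20 ng/mL for 24 h and 2 basal samples without IL-4. All 4 were merged by the authors before contacts were called, so each contact had 1 value, IL-4 and basal cells cannot be told apart, and no replicate error could be given.

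Cholesterol is built from acetyl-CoA through mevalonate and squalene by a chain of enzymes whose genes are switched on by SREBP transcription factors when membrane sterol is low. Scap carries SREBP out of the endoplasmic reticulum, and the Insig proteins hold both back when sterol is plentiful. Macrophages also take up cholesterol with engulfed cells and lipoproteins. They move it out of lysosomes, store it as esters or export it to lipoprotein particles, and several genes of that export route are targets of the sterol-activated LXR receptors.

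The listed interactions spanned 10 kb to 1 Mb, and their observed counts ran from 5 to 2050 read pairs with a median of 27. Every listed ratio of observed to model-expected count was at least 2. The labelled cell type was checked on lists of marker genes, and 8 of 8 macrophage markers had an interaction, with a median of 13.5 per gene. Among markers of other cells, 2 of 4 T cell, 3 of 4 B cell, 3 of 4 hepatocyte and 1 of 4 fibroblast genes had one, where 63.2% of all genes did. Contacts were thus also listed at markers of other cell types, and RNA was not measured in this assay.

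All 30 members had at least 1 interaction, against 63.2% of all genes. At least 10 interactions were listed for 16 of 30 members, against 27.3% of all genes. The members' median was 11.5 interactions per gene (quartiles 6.25 to 23.5), against 2 (0 to 11) for all genes and 7 (2 to 19) for the 13093 genes with any. Contacts were called only where a bin held an H3K4me3 peak, and the part of unmarked promoters in this difference was not tested. Of the members, 27 lay above the median of all genes and 7 were among the 10% of genes with the most. Those 7 were Mvd, Sqle, Cyp51, Tm7sf2, Msmo1 and Dhcr7 among the synthesis enzymes, and Mylip among the efflux and transport genes. Dhcr7 was counted over 3 promoter bins and Mylip over 2, and with only the outermost TSS they had 12 and 21 interactions.

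Synthesis enzymes had a median of 14 interactions (quartiles 6.25 to 39.5, range 1 to 67), against 11 (7 to 13, range 4 to 110) for efflux and transport genes. The quartile ranges overlapped. At least 30 interactions were listed for 6 of 16 synthesis enzymes and for 1 of 9 efflux and transport genes, against 8.81% of all genes. Those 6 enzymes held 306 of the 383 interactions of their class, and Mylip alone held 57.0% of the 193 of its class. Without Mylip, a reading added after the values were seen, the efflux and transport median was 9 and the highest count 22.

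**Figure D1:**
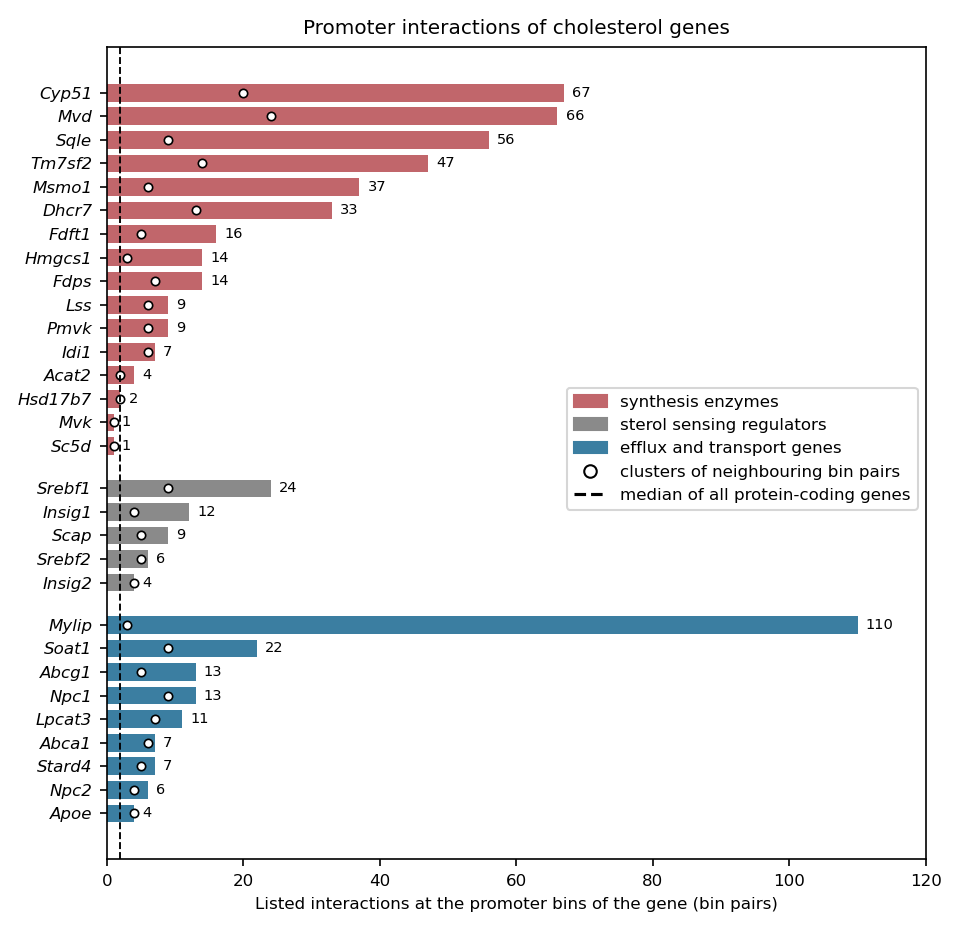
Listed interactions at the promoter bins of each of the 30 members (bars), the number of clusters of neighbouring bin pairs they form (open circles) and the median of all genes, 2 (dashed line), from the 1 list merged over 4 samples, so no error bars are drawn. Mylip has the longest bar, 110, in 3 clusters, while the 67 of Cyp51 form 20 and the 66 of Mvd form 24.

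Within the pathway, counts were uneven between the early and the late enzymes. The 8 that lead to squalene had 131 interactions with a median of 11.5 per gene, and the 8 that turn squalene into cholesterol had 252 with a median of 35. This division was made after the values were seen and is given as a description. The ranges overlapped, at 1 to 66 and 1 to 67, and with each cluster of neighbouring bin pairs counted once the medians were 5.5 and 7.5.

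Hmgcs1, which condenses acetoacetyl-CoA with acetyl-CoA, had 14 interactions, 7 on either side. Of these, 12 lay within 50 kb, and the highest count, 335 read pairs, joined the promoter to the end of its own gene 15 kb downstream. Its highest ratio was 6.53 at 630 kb, on 14 read pairs, with a 95% interval of 3.57 to 11.0. Intervals here are exact Poisson intervals of the observed count and cover counting error only. Its promoter is shown because it was the only one of the 24 member promoters searched with a match to the sterol regulatory element. Capitals mark that match and each CCAAT box on either strand, in chr13:119690101-119690400 of GRCm38.p6, plus strand, from RefSeq.

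Hmgcs1 promoter: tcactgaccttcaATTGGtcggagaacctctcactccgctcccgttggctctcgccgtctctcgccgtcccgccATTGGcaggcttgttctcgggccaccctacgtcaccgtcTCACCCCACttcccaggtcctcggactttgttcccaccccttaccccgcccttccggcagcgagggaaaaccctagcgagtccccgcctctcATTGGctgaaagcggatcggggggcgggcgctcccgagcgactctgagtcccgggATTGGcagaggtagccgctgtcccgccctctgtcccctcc

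Acat2, which makes acetoacetyl-CoA, had 4 interactions and Pmvk, the phosphomevalonate kinase, had 9, both above the median of 2 over all genes. Mvk, the mevalonate kinase, had 1, a contact 875 kb downstream on 12 read pairs with a ratio of 4.55 (2.35 to 7.94). The Mvk promoter bin also held the TSS of Mmab, so the contact cannot be given to either gene. At Pmvk all 9 came from the bin of its inner start sites, and the bin of its outermost start had 0. Idi1, the isopentenyl diphosphate isomerase, had 7, all downstream.

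Mvd, the mevalonate diphosphate decarboxylase, had 66 interactions in 24 clusters, 37 upstream and 29 downstream. It ranked 238 of 20720 genes. The highest count of any member, 1692 read pairs with a ratio of 2.86 (2.72 to 3.0), joined its promoter to the bin of the Cyba start 10 kb away. That bin also held the end of Mvd itself, so the contact cannot be given to the Cyba start alone. Cyba encodes a subunit of the phagocyte NADPH oxidase. Another contact, with the bin of the Snai3 start at 20 kb, had 588 read pairs. Its highest ratio was 10.0 (7.28 to 13.5) on 44 read pairs, 790 kb upstream in a bin with exons of Cdk10 and Spata2l. All 66 partner bins lay inside Gm20388, a read-through gene annotated from 119910841 to 124345722 on chromosome 8. With that model left out, 18 of the 66 were intergenic, against 0 with it.

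Fdps, the farnesyl diphosphate synthase, had 14 interactions, 12 of them upstream. These included the starts of Mtx1 at 110 kb with 133 read pairs and of Clk2 and Hcn3 at 60 kb with 132. Fdft1, the squalene synthase, had 16. One joined it to Neil2 10 kb upstream with 457 read pairs, and another reached an intergenic bin 100 kb downstream with 136 read pairs and a ratio of 5.87 (4.93 to 6.95).

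Sqle, the squalene epoxidase, had 56 interactions, 52 of them upstream. Of these, 45 belonged to 1 cluster of 110 bin pairs between 150 and 445 kb away, across Mtss1 and Ndufb9. Its highest ratio, 7.70 (6.13 to 9.54) on 83 read pairs, was in Mtss1 at 345 kb. Its highest count, 171 read pairs at a ratio of 4.94, was the bin with the starts of Ndufb9 and Tatdn1 at 385 kb. No contact of the counted Sqle bin was nearer than 125 kb. The Sqle starts lay 80 and 106 bases from the edge of that bin, and the neighbouring bin had 51 interactions of its own. Lss, the lanosterol synthase, had 9, and its highest ratio was 6.42 (4.87 to 8.32) at 275 kb in a bin of Dip2a and S100b.

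Cyp51, the lanosterol demethylase, had the most interactions of any synthesis enzyme, 67 in 20 clusters, 30 upstream and 37 downstream. A cluster of 17 lay between 165 and 295 kb downstream. Its highest ratio, 9.10 (6.56 to 12.3) on 42 read pairs, was 815 kb upstream in an intron of Cdk14, where 7 interactions formed 1 cluster. In all, 19 Cyp51 contacts spanned more than 500 kb. Its promoter is shown as that of the enzyme with the most listed interactions, though Mvd had 66, in 24 clusters. The CCAAT box is in capitals, in chr5:4104648-4104947 of GRCm38.p6, minus strand, from RefSeq.

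Cyp51 promoter: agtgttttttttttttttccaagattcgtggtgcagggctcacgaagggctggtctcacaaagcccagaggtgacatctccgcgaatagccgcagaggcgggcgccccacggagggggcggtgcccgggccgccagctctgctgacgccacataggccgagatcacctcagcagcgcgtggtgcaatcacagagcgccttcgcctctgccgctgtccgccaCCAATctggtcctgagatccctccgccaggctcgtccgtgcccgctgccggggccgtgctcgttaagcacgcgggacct

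Tm7sf2, a sterol reductase, had 47 interactions, and 16 of its partner bins held a TSS, more than for any other member. The nearest, with Vps51 at 10 kb, had 1185 read pairs at a ratio of 2.64 (2.50 to 2.80). Tm7sf2 had 49 genes within 500 kb, the most of any member, against a median of 16 for all genes. Whether this bears on its TSS partners was not tested. Its highest ratio, 7.38 (5.01 to 10.5), was at an intergenic bin 485 kb downstream. Msmo1, the methylsterol oxidase, had 37, and none spanned over 350 kb. A cluster of 13 lay 170 to 235 kb upstream, with a ratio of 7.13 (5.81 to 8.66) at 205 kb and 194 read pairs at the Tmem192 start at 215 kb. Dhcr7, which makes the last reduction to cholesterol, had 33 over 3 promoter bins with 12, 6 and 15, and a start of Nadsyn1 lay in these bins. Hsd17b7, a sterol ketoreductase, had 2 and Sc5d, the lathosterol desaturase, had 1, at 310 kb with 39 read pairs.

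**Figure D2:**
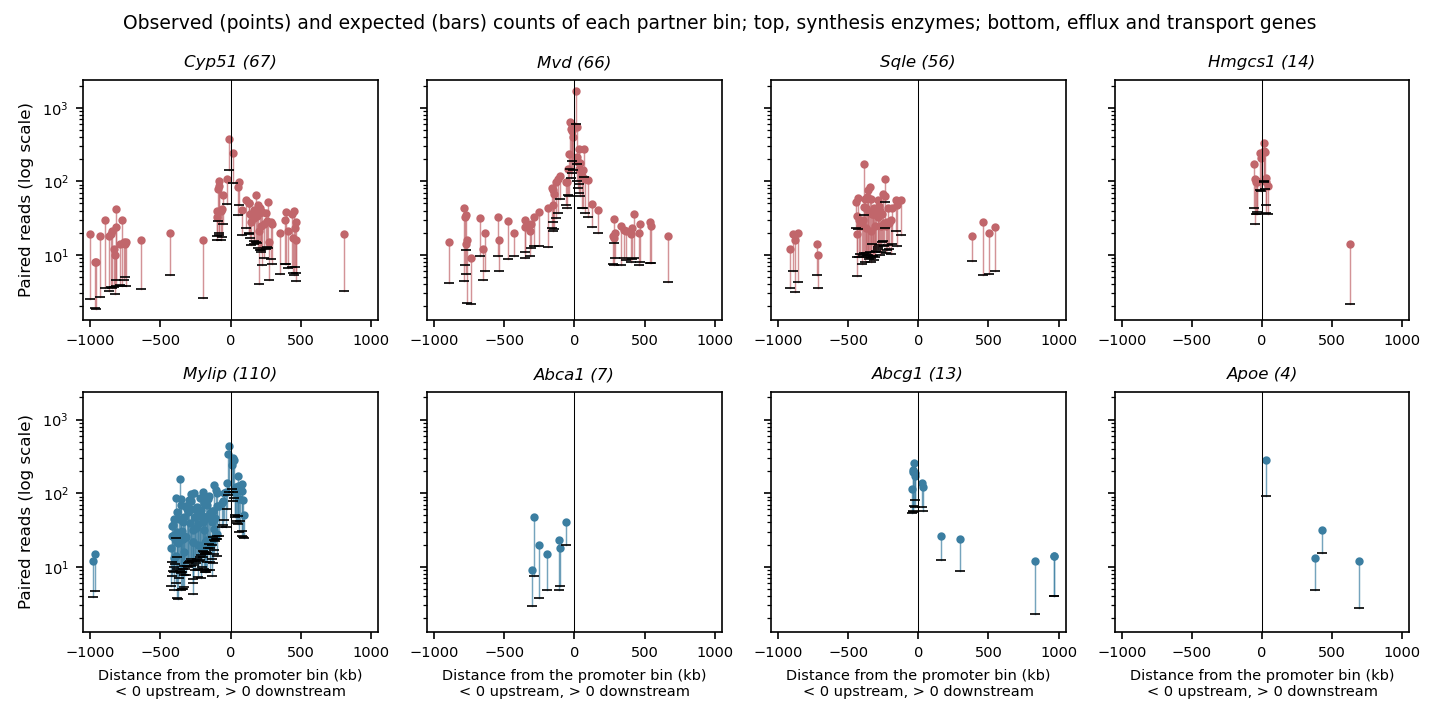
Observed paired reads (points) and the count expected by the model (bars) for each partner bin, on a log scale, against the distance from the promoter bin in kb, for 4 synthesis enzymes in the top row and 4 efflux and transport genes in the bottom row. Mylip contacts crowd on the upstream side with 94 of 110, Sqle has 52 of 56 upstream, and all 7 of Abca1 are upstream.

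Among the sterol sensing regulators, Srebf1, which encodes SREBP1, had 24 interactions and Insig1 had 12. Scap had 9, Srebf2, which encodes SREBP2, had 6 and Insig2 had 4. The median was 9. All contacts lay upstream for Insig1 and downstream for Srebf2 and Scap. Of the 27 members of any class with at least 4 interactions, 6 had all on 1 side. The share over all genes was not computed, so this is not given as a trait of the regulators. Insig1 had 10 of its 12 partners in intergenic bins, 9 of them in 1 cluster 30 to 90 kb away, and 87 read pairs at a ratio of 3.59 joined it to the start of Paxip1 at 280 kb. The highest count of Scap, 338 read pairs at a ratio of 3.77 (3.38 to 4.19), lay 15 kb inside its own gene.

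RefSeq also placed a start of Srebf1 at 60210471 on chromosome 11, in a bin the annotation did not count as its promoter. That bin had 22 interactions, with a highest ratio of 5.40, against 24 for the counted bin. The window at this start held a match to an LXR form added after the data were seen, GGTTA and GGTCA separated by 5 bases. It is shown with that match and the CCAAT box in capitals, in chr11:60210422-60210721 of GRCm38.p6, minus strand, from RefSeq.

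Srebf1 promoter: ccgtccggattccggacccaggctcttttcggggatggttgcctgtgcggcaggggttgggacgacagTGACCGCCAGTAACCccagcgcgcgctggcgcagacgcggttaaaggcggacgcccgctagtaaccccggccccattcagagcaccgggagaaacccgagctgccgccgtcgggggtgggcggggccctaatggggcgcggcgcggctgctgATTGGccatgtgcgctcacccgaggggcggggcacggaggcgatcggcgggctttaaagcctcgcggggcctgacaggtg

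Abca1, which exports cholesterol to lipid-poor apolipoproteins, had 7 interactions, all upstream. The strongest joined it to the start of Slc44a1, a choline transporter gene, 285 kb away, with 48 read pairs and a ratio of 6.43 (4.74 to 8.52). The Abca1 start lay 105 bases from the edge of its bin, and the neighbouring bin had 12 interactions of its own. Bins within the gene had 29, of which 7 reached the Slc44a1 start. Its promoter was the other member window with that added LXR form, marked in capitals in chr4:53159846-53160145 of GRCm38.p6, minus strand, from RefSeq.

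Abca1 promoter: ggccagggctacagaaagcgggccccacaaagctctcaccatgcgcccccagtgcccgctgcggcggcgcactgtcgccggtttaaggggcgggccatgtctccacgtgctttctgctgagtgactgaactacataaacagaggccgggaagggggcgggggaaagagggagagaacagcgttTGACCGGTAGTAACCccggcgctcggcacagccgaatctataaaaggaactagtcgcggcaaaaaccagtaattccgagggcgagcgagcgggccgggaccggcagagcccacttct

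Abcg1, which exports cholesterol to mature lipoprotein particles, had 13 interactions, and 8 of them lay in 1 cluster 20 to 45 kb away. Its highest count was 259 read pairs 30 kb upstream, at a ratio of 3.84 (3.39 to 4.34). Apoe, an apolipoprotein that macrophages secrete, had 4, all downstream, with 281 read pairs at the Clptm1 start 30 kb away. Lpcat3, which remodels membrane phospholipids, had 11. Its partners included the starts of C1ra at 150 kb, C1rl at 170 kb and Mlf2 at 270 kb.

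The genes that move sterol inside the cell had 6 to 22 interactions. Npc1 and Npc2, which pass cholesterol out of lysosomes, had 13 and 6. The Npc2 bin also held the TSS of Isca2. Stard4, a sterol carrier of the cytosol, had 7, of which 6 lay upstream, and its highest ratio was 7.04 (4.93 to 9.75) at 545 kb. Soat1, which esterifies cholesterol for storage, had 22 over 2 promoter bins with 10 and 12, including the starts of Tor1aip1 and Tor1aip2 425 to 440 kb downstream.

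Mylip, a ubiquitin ligase that marks lipoprotein receptors for degradation, had 110 interactions and ranked 42 of 20720 genes. They lay 94 upstream and 16 downstream, and 94 partners were intergenic. One cluster held 85 of them, 85 to 425 kb upstream on chromosome 13 between 44965001 and 45310000. The highest ratio of any member, 17.9 (15.2 to 21.0), was in it, 360 kb upstream at an intergenic bin from 45030001 to 45035000, with 155 read pairs observed and 8.65 expected. Its highest count was 444 read pairs at 10 kb. The ratio reached 4 or more in 44 of its interactions. The 110 came from 2 promoter bins, with 21 at the outer start and 89 at the inner one, and reached 90 distinct partner bins. The outer promoter is shown with its CCAAT boxes in capitals, in chr13:45389492-45389791 of GRCm38.p6, plus strand, from RefSeq.

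Mylip promoter: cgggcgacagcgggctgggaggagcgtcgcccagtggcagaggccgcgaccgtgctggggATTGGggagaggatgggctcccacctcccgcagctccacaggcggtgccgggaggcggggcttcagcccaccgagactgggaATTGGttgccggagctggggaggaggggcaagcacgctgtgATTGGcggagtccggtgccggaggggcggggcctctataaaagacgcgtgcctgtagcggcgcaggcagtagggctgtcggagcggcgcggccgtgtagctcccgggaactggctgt

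Partner distances were compared between the classes. The median distance was 225 kb (quartiles 85 to 422.5) for synthesis enzymes and 185 kb (90 to 340) for efflux and transport genes, against 195 kb (85 to 390) for all genes. With an FDR under 1e-06 the order turned round, to 115 kb for synthesis enzymes and 152.5 kb for efflux and transport genes. A ratio of 4 or more was listed for 12 of 16 synthesis enzymes, 4 of 5 regulators and 8 of 9 efflux and transport genes. That made 24 of 30 members, against 8766 of the 13093 genes with an interaction and 42.3% of all genes. Only the 13093 genes with an interaction can have such a ratio, and all 30 members are among them. The 6 members without were Acat2, Idi1, Hsd17b7, Sc5d, Insig2 and Npc2.

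The ratio was higher at longer distance in every class and over all genes. Only pairs with a ratio of at least 2 and an FDR of at most 0.01 were listed. For synthesis enzymes the median observed count was 206 at 10 to 50 kb and 14 at 500 to 1000 kb. The part of this filter in the rise of the ratio was not tested. At 10 to 50 kb the median ratio was 2.60 for synthesis enzymes and 2.68 for efflux and transport genes, against 2.46 for all genes. At 500 to 1000 kb it was 3.78 on 73 interactions and 4.20 on 14, against 3.95. At 200 to 500 kb it was 3.09 for synthesis enzymes and 3.97 for efflux and transport genes, against 3.15, and the Mylip cluster at 85 to 425 kb overlaps that range. The highest ratio of a gene lay 500 kb or more away for 7 of 16 synthesis enzymes, 4 of 5 regulators and 5 of 9 efflux and transport genes, against 37.3% of all genes with an interaction. The highest count lay within 50 kb for 21 of 30 members, against 49.3% of all genes with an interaction.

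**Figure D3:**
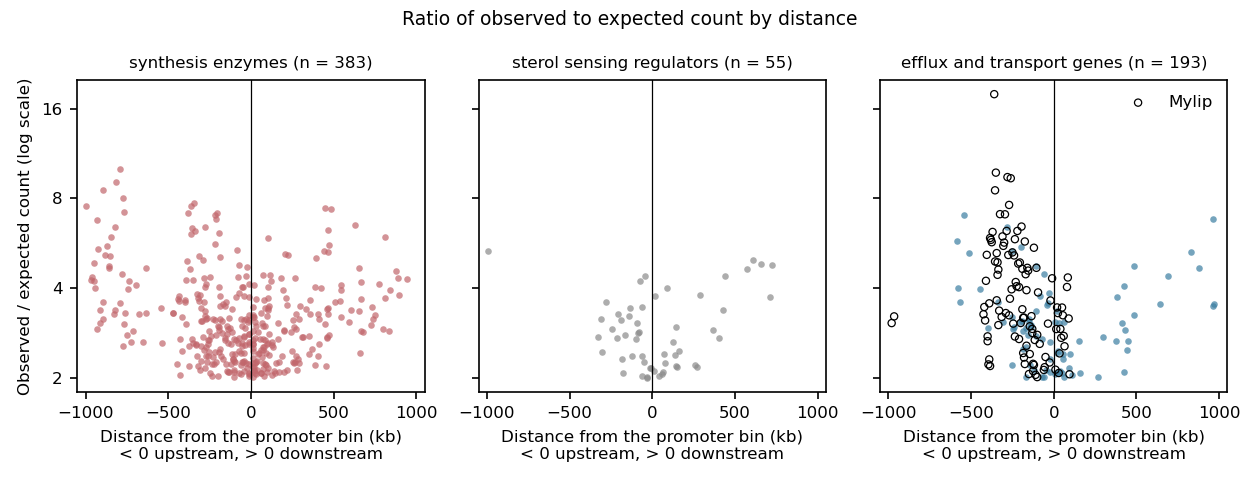
Ratio of observed to expected count of each interaction, on a log scale, against the distance from the promoter bin in kb, for the 383 interactions of synthesis enzymes, the 55 of regulators and the 193 of efflux and transport genes, with Mylip as open circles. The highest point of the efflux and transport genes is the Mylip contact at 17.9, and that of the synthesis enzymes is the Mvd contact at 10.0.

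Partner bins held another TSS in 11.7% of the 383 interactions of synthesis enzymes (95% Wilson interval 8.90 to 15.4) and in 7.77% of the 193 of efflux and transport genes (4.77 to 12.4), against 13.4% for all genes. The intervals overlapped, and interactions of 1 cluster are not independent. Intergenic bins made up 25.1% of the partners of synthesis enzymes and 63.2% of those of efflux and transport genes, against 31.9% for all genes. Without Mylip, 33.7% of efflux and transport partners were intergenic and 14.5% (8.47 to 23.6) held a TSS. Tm7sf2 alone gave 16 of the 45 TSS partners of synthesis enzymes. For synthesis enzymes, the intergenic share was 29.8% with Gm20388 left out. Exon bins made up 38.9% for synthesis enzymes and 19.2% for efflux and transport genes, or 33.7% without Mylip, against 33.8% for all genes. A TSS partner was found for 10 of 16 synthesis enzymes, 4 of 5 regulators and 7 of 9 efflux and transport genes. That made 21 of 30 members, against a similar share of the genes with an interaction, 9205 of 13093, and 44.4% of all genes. Only the 13093 genes with an interaction can have such a partner, and all 30 members are among them. Interactions between the promoters of 2 members numbered 0.

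**Figure D4:**
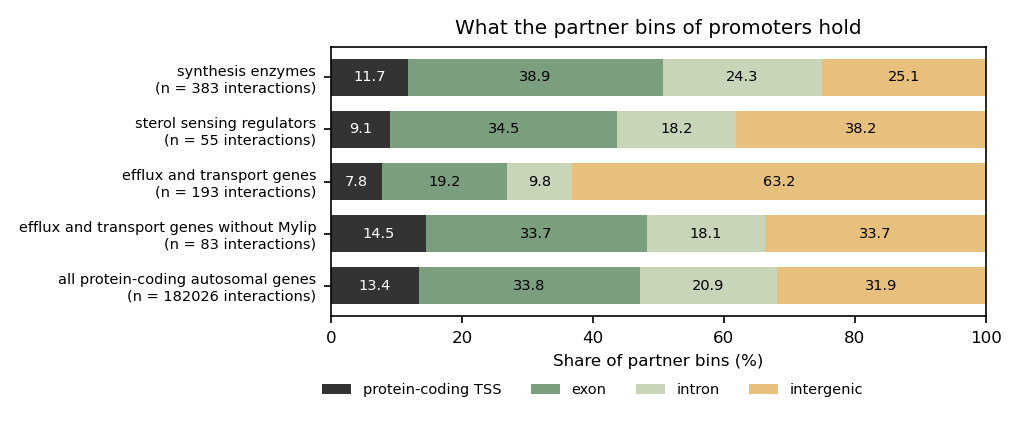
Share of partner bins in percent that held a protein-coding TSS, an exon, an intron or no protein-coding gene, by class, for efflux and transport genes also without Mylip, and for all genes. Intergenic bins are 25.1% of the partners of synthesis enzymes, 63.2% of those of efflux and transport genes and 33.7% for efflux and transport genes without Mylip.

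Sequence features of the promoters were counted in windows from 250 bases before to 50 after each RefSeq start, for the 24 of 30 members in the RefSeq table. The sterol regulatory element was searched as TCACNCCAC on both strands, and Hmgcs1 was the 1 of 13 synthesis enzymes with a match, against 0 of 6 efflux and transport genes and 1.44% of 27025 genes. A CCAAT box, CCAAT on either strand, stood in 12 of 13 synthesis enzymes, 4 of 5 regulators and 4 of 6 efflux and transport genes, against 41.1% of genes. The LXR element as planned, a direct repeat of AGGTCA with 4 bases between, was in 0 members and 0.0148% of genes. The second LXR form, GGTTA and GGTCA separated by 5 bases, was added after the data were seen. It was in Abca1 and Srebf1, against 0.0481% of genes, and is given as a description only. Absence says only that these letters are not in the window.

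The promoter bins themselves held a CTCF consensus match in 11 of 16 synthesis enzymes, 2 of 5 regulators and 4 of 9 efflux and transport genes, against 36.7% of all genes. MboI sites, at which the chromatin was cut, had a median of 13.5 per promoter bin for synthesis enzymes and 13 for efflux and transport genes, against 12 for all genes. Within 500 kb there was a median of 15.5 genes for synthesis enzymes and 13 for efflux and transport genes, against 16 for all genes. Mylip had 3. Whether these features bear on the contact counts was not tested.

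Of 27 further genes of cholesterol handling, 25 had an interaction, with a median of 9, and 13 had at least 10. The most were at Gramd1b, a sterol transfer protein gene, with 59 and Erlin2, a membrane protein of sterol sensing, with 42. Nr1h2 and Nr1h3, the LXR genes, had 19 and 11, with a highest ratio of 13.7 for Nr1h2 at 485 kb. Vldlr, a lipoprotein receptor gene, had 0.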

How the data were processed

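H3K4me3 HiChIP was performed by the authors on C57BL/6J BMDMs, and Bowtie2, bedtools and the mm10 build are listed in the submitters' processing notes. Contacts were called with MAPS in 5000-bp bins, after the 4 samples had been merged, and H3K4me3 ChIP-seq peaks served as anchors. Pairs without the mark in either bin were thus not tested. The authors deposited a count of observed read pairs and an expected count from the MAPS model for each bin pair, and the deposited FDR is an adjusted p-value. The deposited −log10 p per cluster was not used. The list is pooled, so the depth per sample is unknown and the planned comparison of IL-4 with basal could not be made.

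A promoter bin held a TSS of a protein-coding transcript of the GENCODE M21 basic set, and partner bins were classed as TSS, exon, intron or intergenic in that order. Distances are between bin starts. The list holds autosomes, and X-linked genes of the pathway were not analysed here. All 30 members are named by rule, with the partners of highest ratio and highest count. The members and lists were chosen with earlier results of these data known. Genes are not replicates and no p was computed across them. Ratios have exact 95% Poisson intervals and shares 95% Wilson intervals. The counting steps were tested on simulated data. The 7 alternatives planned are given in the closing section. The readings without Mylip and without Gm20388, the division of the enzymes at squalene and the search for the second LXR form were added after the data were seen. Python 3.11.15, numpy 2.4.6, pandas 2.3.3, scipy 1.17.1 and matplotlib 3.10.9 were used. Some single genes that enter the counts are not reported here by name.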

Additional observations from a re-analysis of the deposited data

How the results depend on the processing

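Of the 44 values by class recomputed under other settings, 28 stayed within the spread allowed and 16 moved. With an FDR under 1e-06, the medians were 9.5 interactions per gene for synthesis enzymes, 6 for regulators and 5 for efflux and transport genes. In the full list they were 14, 9 and 11. The median distance was then 115 kb for synthesis enzymes and 152.5 kb for efflux and transport genes. In the full list the order was the reverse, at 225 and 185 kb. With a ratio of at least 4, the medians were 2.5 for synthesis enzymes, 2 for regulators and 2 for efflux and transport genes, the TSS shares 6.02% and 3.39%, and the distances 390 and 285 kb for synthesis enzymes and for efflux and transport genes. With each cluster counted once, the medians were 6, 5 and 5. With a TSS within 2500 bp of the bin, the medians of synthesis enzymes and of efflux and transport genes were both 17, and the TSS shares 27.3% and 13.5%. Sqle and Abca1, whose starts lie near a bin edge, then had 107 and 19 interactions. Without Mylip, the efflux and transport TSS share was 14.5%, above the 11.7% of synthesis enzymes. That 11.7% still included Tm7sf2, which gave 16 of the 45 TSS partners of its class, and a share without it was not computed. The order of the class medians thus depended on the TSS window, and for regulators against efflux and transport genes also on the FDR. The medians of regulators and of efflux and transport genes were equal with a ratio of at least 4 and with clusters counted once. The order of the median distances depended on the FDR, and that of the TSS shares on Mylip. Counts of single genes stayed within 1.5 times for 30 of 30 members with at least 10 read pairs, 26 without clusters of 1 bin pair, 25 with the outermost TSS, 22 with the wider TSS window, 13 with clusters counted once, 10 with the lower FDR and 2 with a ratio of at least 4. With the outermost TSS, Mylip went from 110 to 21 and Dhcr7 from 33 to 12. No paired analysis was possible because the list is pooled over all samples, and no replicate could be left out for the same reason.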
